A study of Drosophila melanogaster with 16 samples.

Results

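The genes described here carry the insulin signal into Drosophila cells or brake the growth it drives. They were chosen by name: probes whose symbol in the platform annotation is InR, chico, Pi3K92E, Akt, foxo, Thor, ImpL2, scyl, chrb or Sesn. Of these 10 genes, 7 were found on 9 probes, among 11980 named genes and 17258 probes in all, and all 7 entered the test. They are InR (NCBI Gene 42549), chico (64880), Akt (41957), foxo (41709), ImpL2 (38513, on 3 probes), scyl (39270) and Sesn (37755). Pi3K92E, Thor and chrb were not analysed here.

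Insulin-like peptides bind the receptor tyrosine kinase InR, which recruits the substrate protein Chico and, through a lipid kinase whose catalytic subunit is Pi3K92E, activates the kinase Akt. Akt keeps the transcription factor Foxo out of the nucleus and, with the kinase TOR, promotes growth. When insulin signalling is low, Foxo enters the nucleus and switches on genes that restrain growth, among them Thor, a translation inhibitor, and also InR itself. ImpL2 is a secreted protein that binds insulin-like peptides and opposes them outside the cell, whereas scyl, its relative chrb and Sesn act inside the cell and restrain TOR.

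The study asked which transcripts respond when the receptor Notch is switched on in 2 Drosophila cell lines, DmD8, known as a line from larval discs, and Kc, known as an embryonic line with blood cell features. Activated Notch is cleaved by gamma-secretase and its freed inner part acts in the nucleus. On every array, RNA from activated cells, exposed for 30 minutes to 2 mM EDTA in PBS, was set against a comparison RNA. In DmD8 (5 arrays) the comparison cells had either PBS alone or 300 µM of the gamma-secretase inhibitor DFK-167 overnight followed by EDTA, because the columns titled for these 2 experiments hold the same values. Among 71019 value pairs 24 differed, the largest difference being 4.87e-08, so the 5 arrays were counted once and 11 of 16 columns are distinct. In Kc (6 arrays) the comparison cells had PBS alone. EDTA removes divalent metal ions, and its effects besides that on Notch are part of each ratio to control cells. All cells of both lines, compared cells included, grew at 25 °C in Schneider's medium with 10% fetal calf serum and 10 µg/ml added insulin. These data therefore describe insulin pathway transcripts in cells already given insulin, and no array compares cells with and without it.

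Each value is the deposited log ratio of a probe, taken as log2 from its range, and since a natural log is possible no fold is stated. Positive is read as higher in activated cells, a direction that is likely but not stated: it rests on the dyes in the labels and on the E(spl) genes, known targets that Notch switches on. E(spl)m3-HLH stood at 1.24 ± 0.13 in DmD8 and 4.17 ± 0.12 in Kc, and E(spl)m7-HLH at 1.25 ± 0.16 and 1.21 ± 0.14, all positive on 11 of 11 arrays. Replicates 1 to 3 had activated RNA in Cy5 and the later ones, the dye swaps, had it in Cy3. Between 77.4% and 90.6% of probes had a value on an array, and array medians lay between -0.13 and 0.16. Ratios hold no levels, so neither how strongly a line expresses a gene nor the identity of the lines by their markers could be checked. Kc arrays 2 and 5 stand apart in 2 of 3 tested heat shock transcripts, with Hsp26 at 1.90 and 1.92 against -0.27 to 0.14 on the other Kc arrays, and Hsp27 at 1.06 and 0.99 against -0.0028 to 0.37. Hsp68, at 0.50 and 0.16 against -0.73 to 0.22, does not set array 5 apart. Calls in Kc and in the difference between the lines, for the 7 genes and other pathway genes, are also given without arrays 2 and 5. Of 3 tested muscle progenitor markers, 2 rose in DmD8 (Him and twi, 2.36 and 1.06) and 1 in Kc (zfh1, 0.77). Of 4 tested blood cell markers, srp (0.52), ush (0.74) and Hml (0.66) rose in Kc and 0 passed limma in DmD8. There 1 had an unadjusted p under 0.05, as did 2555 of all 12952 named genes or unnamed probes tested. The part of such markers in the results below was not tested.

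Means below are from limma, fitted to all 11 arrays with, for each line, its mean and a term for the dye; errors are SE, and p-values were adjusted by Benjamini-Hochberg over all 12952 features (named genes or unnamed probes) with a threshold of 0.05. The arrays come from 3 biological replicates per experiment, and the swaps may repeat their RNA. The test was therefore repeated with each swap averaged with one of replicates 1 to 3 in each possible way, and a call that holds under every pairing is named as such. There were 36 such pairings for both lines together. DmD8 has fewer swaps than Cy5 arrays, so in each pairing 1 DmD8 Cy5 array had no partner. The dye term fitted that array exactly. The DmD8 mean thus rested on the averaged values alone, fewer than the 3 of Kc.

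In DmD8, 2 of the 7 genes passed the test, scyl and ImpL2, and both fell. Of all 12952 features 7.24% passed in DmD8, 4.16% as lower. In Kc, 3 of the 7 passed, InR, Sesn and chico, and all 3 rose, against 11.9% of all features in either direction and 7.1% as higher. The lines differed for 4 of the 7 genes, scyl, Sesn, ImpL2 and chico, each lower in DmD8 than in Kc, against 10.9% of all features in either direction and 6.51% as lower. Akt and foxo passed in neither line nor in the difference. The median of the 7 log ratios was -0.13 in DmD8 and 0.32 in Kc, beside -0.039 and 0.011 over all features. In DmD8 399 features passed as higher and 539 as lower, and 507 and 420 with array medians set to 0. In the difference they were 572 and 843, and 778 and 611 on centred arrays. Centring changed no call of the 7 genes except that of chico in the difference (-0.50, adjusted p = 0.0559).

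**Figure D1:**
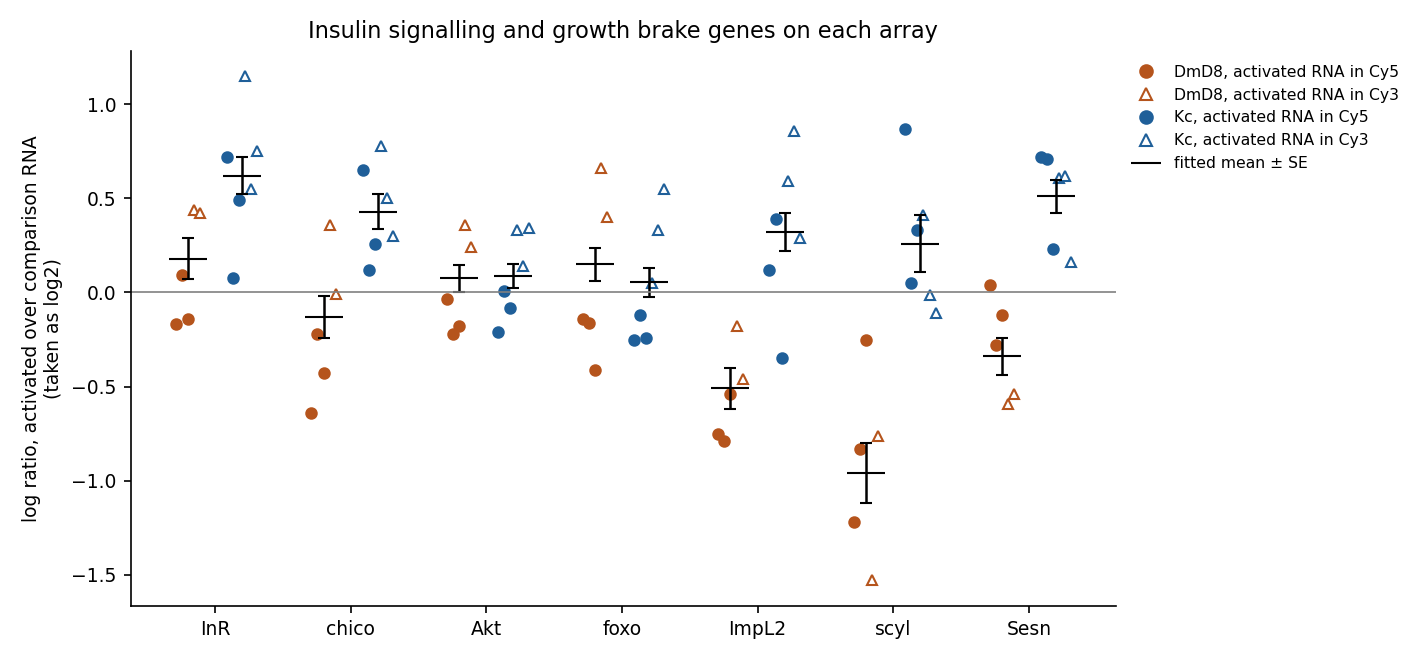
Log ratio of activated over comparison RNA (taken as log2, vertical axis) for the 7 genes on each array. Circles are arrays with activated RNA in Cy5 and triangles those with it in Cy3, DmD8 to the left of Kc within a gene, and black bars are the fitted mean ± SE. The 5 DmD8 points lie below all 6 Kc points for scyl and for Sesn.

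InR, the insulin receptor, rose in Kc and did not pass in DmD8. In DmD8 its log ratios were -0.17, 0.095 and -0.14 with activated RNA in Cy5 and 0.44 and 0.42 on the swaps. In Kc they were 0.72, 0.077 and 0.49 with activated RNA in Cy5 and 1.15, 0.55 and 0.75 on the swaps. All 6 Kc arrays were thus positive, with array 2 near 0, whereas the sign in DmD8 followed the dye on all but array 2. The mean was 0.62 ± 0.097 in Kc (adjusted p = 0.00184), and 182 features lay above it. Under every pairing the Kc rise stayed past the threshold, with a largest adjusted p of 0.0194, and without Kc arrays 2 and 5 it was 0.78 (adjusted p = 0.00174). In DmD8 the mean was 0.18 ± 0.11 (adjusted p = 0.385), with a 95% interval from -0.059 to 0.42. The difference between the lines, DmD8 minus Kc, was -0.45 ± 0.15 and did not pass (adjusted p = 0.0754). It did pass without Kc array 2 (-0.53, adjusted p = 0.0302) and without Kc arrays 2 and 5 (-0.60, adjusted p = 0.027), and under 8 of 36 pairings. In bulk RNA such as this, a change in the share of cells that make a transcript and a change in the amount per cell cannot be told apart, here and for every gene that follows.

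The receptor substrate gene chico also rose in Kc and did not pass in DmD8. Its log ratios were -0.64, -0.22, -0.43, 0.36 and -0.0083 on DmD8 arrays 1 to 5, and 0.65, 0.12, 0.26, 0.78, 0.50 and 0.30 on Kc arrays 1 to 6. Every Kc array was positive, and 4 of 5 DmD8 arrays were negative. The exception, DmD8 array 4, overlapped the range of Kc. The mean was -0.13 ± 0.11 in DmD8 (adjusted p = 0.536) and 0.43 ± 0.095 in Kc (adjusted p = 0.0123), and the difference was -0.56 ± 0.14 (adjusted p = 0.0282). In Kc the call held under every pairing (largest adjusted p = 0.0475) and without arrays 2 and 5 (0.50, adjusted p = 0.0368). It was lost without array 1 (0.36, adjusted p = 0.0506) or array 4 (0.37, adjusted p = 0.0542). The difference passed under 20 of 36 pairings, up to an adjusted p of 0.158. It was lost when DmD8 array 1 or 5, or Kc array 1, 4 or 5, was left out, with values from -0.57 to -0.47.

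Akt, the kinase at the centre of the pathway, changed detectably in neither line. Its log ratios were -0.036, -0.22, -0.18, 0.36 and 0.24 on the DmD8 arrays and -0.21, 0.0059, -0.081, 0.33, 0.14 and 0.34 on the Kc arrays. In DmD8 the sign went with the dye, negative with activated RNA in Cy5 and positive in Cy3, and so it did in Kc apart from a value near 0 on array 2. The means were 0.076 ± 0.072 in DmD8 (95% interval -0.082 to 0.23) and 0.087 ± 0.065 in Kc (-0.054 to 0.23), with adjusted p = 0.588 and 0.477. The difference between the lines was -0.011 ± 0.097, with an interval from -0.22 to 0.20.

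For foxo, the transcription factor that Akt restrains, the sign followed the dye on every array. The DmD8 arrays gave -0.14, -0.16 and -0.41 with activated RNA in Cy5, and 0.66 and 0.40 on the swaps. The Kc arrays gave -0.25, -0.12 and -0.24, and 0.051, 0.33 and 0.55 on the swaps. All Cy5 arrays were negative and all Cy3 arrays positive in both lines. The mean of the orientations was 0.15 ± 0.088 in DmD8 (adjusted p = 0.373, interval -0.044 to 0.34) and 0.053 ± 0.078 in Kc (adjusted p = 0.768, interval -0.12 to 0.22). These means take the swaps as already turned by the authors, which the files do not state but the known Notch targets bear on. E(spl)m3-HLH averaged 0.84 in Cy5 and 1.65 in Cy3 in DmD8, and 4.11 and 4.23 in Kc. E(spl)m2-BFM, another of these targets, averaged 1.32 and 1.36 in DmD8 and 2.85 and 2.70 in Kc. As deposited they are positive in both orientations, and turning the swaps would make them negative on the swap arrays. In that alternative foxo would stand at -0.38 in DmD8 (adjusted p = 0.0175) and -0.26 in Kc (adjusted p = 0.0411), and the rise of InR and that of chico in Kc would become -0.19 and -0.092 (adjusted p = 0.166 and 0.506).

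**Figure D2:**
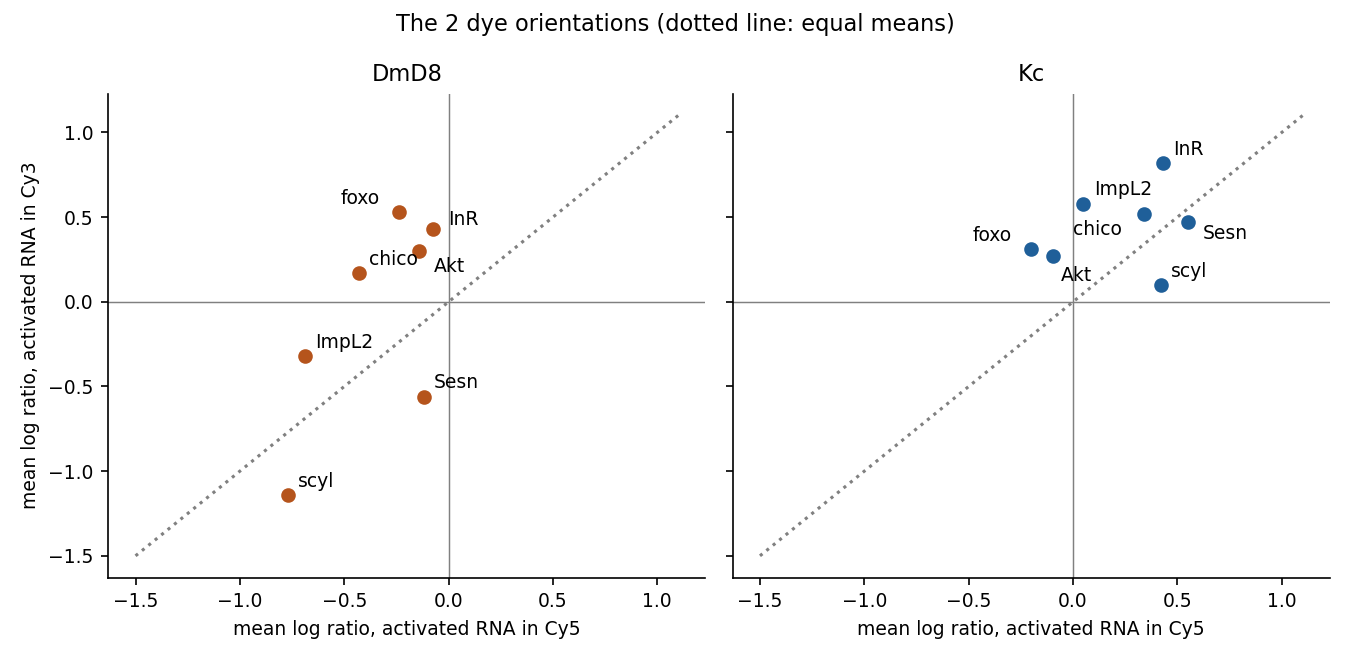
Mean log ratio of each gene on arrays where activated RNA was in Cy5 (horizontal axis) or in Cy3 (vertical axis), DmD8 on the left and Kc on the right; the dotted line marks equal means. The foxo and Akt points lie to the upper left of the zero lines in both lines, where the sign changes with the dye, as InR and chico do in DmD8. The genes scyl, ImpL2 and Sesn are negative in both orientations in DmD8, and InR, chico, Sesn, ImpL2 and scyl are positive in both in Kc.

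ImpL2, the secreted antagonist of insulin-like peptides, fell in DmD8 and stood above 0 in Kc without passing. Averaged over its 3 probes, its log ratios were -0.75, -0.79, -0.54, -0.18 and -0.46 on the DmD8 arrays and 0.12, 0.39, -0.35, 0.59, 0.86 and 0.29 on the Kc arrays. All 5 DmD8 arrays were negative and 5 of 6 Kc arrays positive, with Kc array 3 inside the range of DmD8. The mean was -0.51 ± 0.11 in DmD8 (adjusted p = 0.0202) and 0.32 ± 0.10 in Kc (adjusted p = 0.0706), and the difference was -0.82 ± 0.15 (adjusted p = 0.00667). The difference passed under 34 of 36 pairings (largest adjusted p = 0.0664) and without Kc arrays 2 and 5 (-0.67, adjusted p = 0.025). The fall in DmD8 passed under 19 of 36 pairings, up to an adjusted p of 0.178, and it was lost when DmD8 array 1, 2, 4 or 5 was left out, with values from -0.58 to -0.44. In Kc, ImpL2 was 0.16 without arrays 2 and 5, and it passed without array 3 (0.42, adjusted p = 0.0216) or array 6 (0.39, adjusted p = 0.0484).

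The 3 ImpL2 probes did not agree, and the mean over them hides the larger values. Probe 2 read -1.17, -1.22, -1.04, -0.59 and -0.80 in DmD8, and 0.30, 0.41, -0.057, 0.81, 0.94 and 0.50 in Kc. Probe 3 followed it, and the pair differed by at most 0.38 on any array. On both probes every DmD8 array lay below every Kc array. Probe 2 fell by 0.92 ± 0.092 in DmD8 (adjusted p = 0.000153) and rose by 0.48 ± 0.082 in Kc (adjusted p = 0.00305), and probe 3 fell by 0.76 ± 0.10 (adjusted p = 0.00109) and rose by 0.41 ± 0.093 (adjusted p = 0.0139). Their differences between the lines were -1.40 ± 0.12 and -1.17 ± 0.14 (adjusted p = 6.44e-05 and 0.000408). Probe 1 read -0.30, -0.10, 0.22, 0.54 and 0.22 in DmD8 and -0.13, 0.32, -0.88, 0.26, 0.75 and 0.010 in Kc. It passed nowhere, with means of 0.16 ± 0.16 in DmD8 and 0.055 ± 0.14 in Kc (adjusted p = 0.599 and 0.884), and it differed from probe 2 by up to 1.27 on an array. Where each probe lies on the gene, and whether it detects every transcript of it, was not tested.

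**Figure D3:**
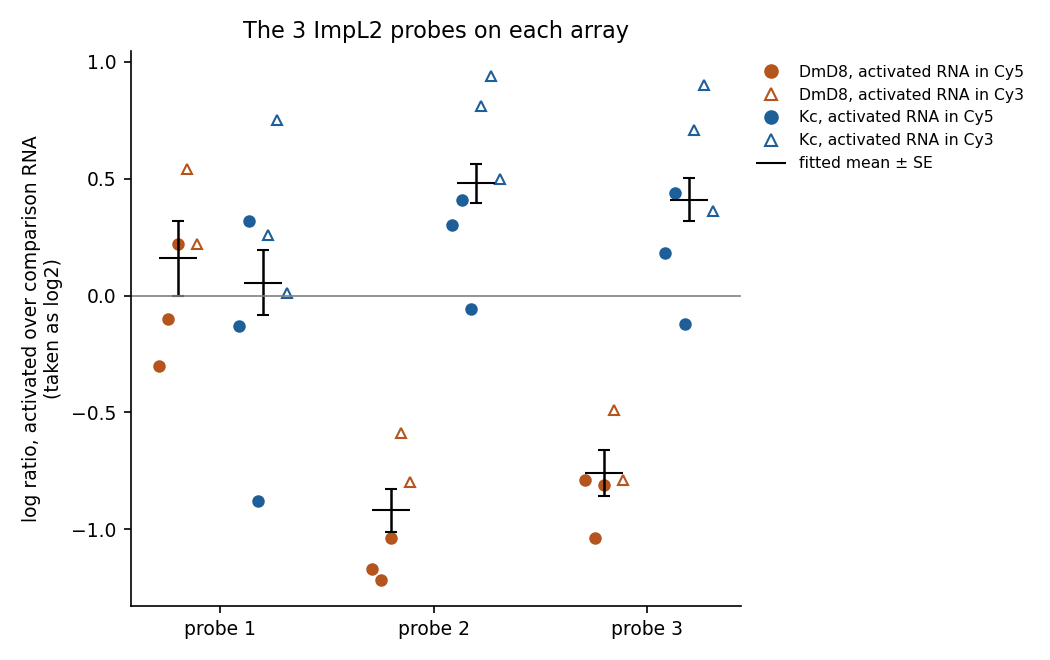
Log ratio of activated over comparison RNA (taken as log2, vertical axis) for the 3 ImpL2 probes on each array, with DmD8 left of Kc at each probe. Circles have activated RNA in Cy5 and triangles in Cy3, and black bars are the fitted mean ± SE. On probes 2 and 3 the DmD8 arrays all lie below the Kc arrays, and on probe 1 the lines overlap.

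Of the brakes inside the cell, scyl had the lowest log ratio of the 7 genes in DmD8. It encodes a protein of the REDD family, which restrains TOR and is known to be induced when oxygen is short. Its log ratios were -1.22, -0.83, -0.25, -1.53 and -0.76 in DmD8 and 0.87, 0.049, 0.33, 0.41, -0.012 and -0.11 in Kc. Every DmD8 array was negative and below every Kc array, while the Kc arrays spread to both sides of 0. The mean was -0.96 ± 0.16 in DmD8 (adjusted p = 0.00425), and 47 of 12952 features were lower. In Kc it was 0.26 ± 0.15 (adjusted p = 0.324, interval -0.064 to 0.58). The difference of -1.21 ± 0.22 (adjusted p = 0.00562) held under every pairing (largest adjusted p = 0.0381) and without Kc arrays 2 and 5 (-1.33, adjusted p = 0.0105). The fall in DmD8 passed under 35 of 36 pairings, with an adjusted p of 0.0517 under the other one. Without DmD8 array 4, the lowest, it was -0.76 and did not pass (adjusted p = 0.0616).

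Sesn, the single Drosophila sestrin, a stress-induced protein that restrains TOR through AMPK and through amino acid sensing, rose in Kc. It read 0.72, 0.71 and 0.23 there with activated RNA in Cy5 and 0.61, 0.62 and 0.16 on the swaps. In DmD8 it read 0.041, -0.28 and -0.12 in Cy5 and -0.59 and -0.54 on the swaps. All Kc arrays were positive and above every DmD8 array, and 4 of 5 DmD8 arrays were negative. The mean was -0.34 ± 0.10 in DmD8 (adjusted p = 0.0669), and 0.51 ± 0.090 in Kc (adjusted p = 0.00408). The difference was -0.85 ± 0.14 (adjusted p = 0.00258). Both the rise in Kc and the difference held under every pairing (largest adjusted p = 0.0299 and 0.0302) and without Kc arrays 2 and 5 (0.43 with adjusted p = 0.049, and -0.77 with adjusted p = 0.0165). The DmD8 value passed without Kc array 3 (-0.34, adjusted p = 0.0413) and when the test was limited to features with all values (-0.34, adjusted p = 0.0462).

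**Figure D4:**
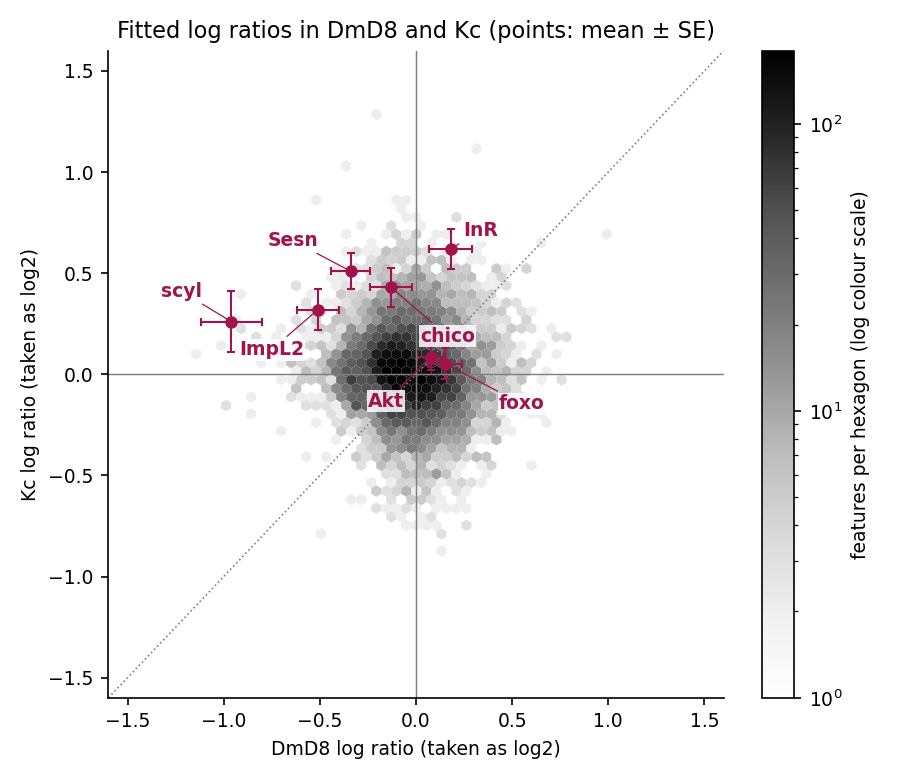
Fitted log ratio in DmD8 (horizontal axis) and in Kc (vertical axis), both taken as log2. Red points are the 7 genes with SE bars, and grey hexagons count the features tested, of which 27 lie outside the axes. The genes scyl, ImpL2, Sesn and chico lie above the dotted line of equal values on the upper left side, and Akt and foxo lie among the bulk of features.

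In order of the fitted log ratio, the DmD8 values ran from scyl through ImpL2, Sesn, chico, Akt and foxo to InR. Kc values ran from foxo through Akt, scyl, ImpL2, chico and Sesn to InR. The 95% intervals of neighbours in either order overlapped. Under every pairing 0 of the 7 genes remained in DmD8, although 3 had an unadjusted p under 0.05 in each pairing. The same 3 genes remained in Kc (InR, chico and Sesn), and scyl and Sesn remained in the difference. Of all features 1.56% passed under every pairing in DmD8, 4.61% in Kc and 2.22% in the difference. The counts for DmD8 and Kc are not from like tests, because each DmD8 pairing left a Cy5 array out of the mean. Over the Cy5 arrays alone, 3 in each line, ImpL2 stayed past the threshold in DmD8 (-0.69) and Sesn in Kc (0.55), and the other calls, the 4 differences included, were lost. With the swaps turned, which would make the E(spl) targets negative on the swap arrays, every call of these 7 genes was lost and foxo alone passed in each line. DmD8 and Kc may have been set against different comparison RNAs, so the line and the comparison cannot be told apart in any difference.

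Other genes of the pathway were taken from a list of 56, of which 38 were on the array and 35 were tested. In DmD8 2 of the 35 passed, both lower, in Kc 7 passed as higher and 1 as lower, and the difference passed for 1 higher and 5 lower. Over all features these shares were 7.24%, 11.9% and 10.9%, so the DmD8 count is near the background. Their medians were -0.024 in DmD8, 0.11 in Kc and -0.18 for the difference, beside -0.06 for the difference over all features. Without Kc arrays 2 and 5, 1 of the 35 passed in Kc, bmm, and 1 in the difference, daw, while over all features 6.56% and 6.8% passed.

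In the insulin pathway itself, 8 of 23 listed genes were tested, and trbl fell in both lines. It encodes Tribbles, a pseudokinase that binds and inhibits Akt. Its log ratios were -0.34, -0.64, -0.60, -0.99 and -0.94 in DmD8, and -0.15, -0.35, -0.36, -0.35, -0.49 and -0.48 in Kc. Every one of the 11 arrays was negative. It fell by 0.74 ± 0.074 in DmD8 (adjusted p = 0.000154) and by 0.36 ± 0.066 in Kc (adjusted p = 0.00486), and the difference was -0.38 ± 0.10 (adjusted p = 0.0314). The fall held under every pairing in DmD8 (largest adjusted p = 0.00826), under 35 of 36 in Kc, and the difference under 6 of 36. Without Kc arrays 2 and 5 the Kc value was -0.33 (adjusted p = 0.056) and the difference -0.41 (adjusted p = 0.0734), neither past the threshold. In Kc 3 genes of this list rose: Lar, a receptor tyrosine phosphatase best known from axon guidance (0.42 ± 0.081, adjusted p = 0.00597), Pdk1, a kinase that phosphorylates Akt (0.31 ± 0.078, adjusted p = 0.0255), and 14-3-3zeta, an adaptor that binds phosphorylated proteins (0.24 ± 0.064 over 2 probes, adjusted p = 0.0313). Of these, Lar alone held under every pairing, and without Kc arrays 2 and 5 none of the 3 passed (adjusted p from 0.0516 for Lar to 0.168 for Pdk1). Lar was at -0.13 in DmD8 and differed between the lines (-0.55 ± 0.12, adjusted p = 0.0145), a call lost without Kc arrays 2 and 5 (-0.54, adjusted p = 0.0554).

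None of the 16 tested genes of the TOR complex and its regulators passed limma's threshold in either line. The unadjusted p was under 0.05 for 4 of them in DmD8 and 6 in Kc. Of all 12952 features, 2555 and 3183 had such a p. The kinase mTor itself stood at 0.082 ± 0.093 in DmD8 and 0.26 ± 0.083 in Kc (adjusted p = 0.654 and 0.0688). Its target kinase S6k stood at 0.17 ± 0.065 in DmD8 and 0.13 ± 0.058 in Kc (adjusted p = 0.167 and 0.177), positive on all 11 arrays. REPTOR, a transcription factor that TOR holds inactive, was the single call in the difference between lines (-0.72 ± 0.16, adjusted p = 0.0155), with -0.40 ± 0.12 in DmD8 and 0.32 ± 0.11 in Kc. Its DmD8 arrays were all negative and 5 of 6 Kc arrays were positive. Without Kc arrays 2 and 5 the difference was -0.70 (adjusted p = 0.0544).

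Among 6 tested genes of energy and oxygen sensing, none passed in DmD8 with limma. There 3 had an unadjusted p under 0.05, as did 2555 of all 12952 features. In Kc the hypoxia factor sima and its partner tgo rose. The log ratio of sima was -0.03 ± 0.09 in DmD8 and 0.33 ± 0.081 in Kc (adjusted p = 0.874 and 0.0202). That of tgo was -0.30 ± 0.10 in DmD8 and 0.31 ± 0.091 in Kc (limma, adjusted p = 0.119 and 0.0434). The tgo difference was -0.61 ± 0.14 (limma, adjusted p = 0.0152). In DmD8 tgo averaged 0.071 with activated RNA in Cy5 and -0.66 on the swaps, so its negative mean rested on the swaps. In Kc, Cy5 arrays and swaps averaged 0.097 and 0.57 for sima, and 0.39 and 0.24 for tgo. Hph, the prolyl hydroxylase that marks Sima for destruction, differed the other way (0.40 ± 0.12, adjusted p = 0.0449), with 0.23 ± 0.086 in DmD8 and -0.17 ± 0.077 in Kc, neither past the threshold. All 5 DmD8 arrays of Hph were positive and all 6 Kc arrays negative. No call of these 3 genes held under every pairing or without Kc arrays 2 and 5.

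Of 5 tested genes of FOXO and growth output, daw had the lowest log ratio of the 35 in DmD8. It encodes Dawdle, an activin-like ligand known in Drosophila as a target of Foxo. It read -1.53, -1.98, -0.95, -1.85 and -2.33 in DmD8 and 0.30, 0.13, 0.42, 0.28, 0.32 and 0.13 in Kc. It fell by 1.79 ± 0.13 in DmD8 and the difference was -2.05 ± 0.17 (adjusted p = 1.34e-05 and 5.12e-05), and both calls held under every pairing, whereas the Kc mean of 0.26 ± 0.12 did not pass (adjusted p = 0.18). The triglyceride lipase bmm, another known target of Foxo, rose in Kc (0.65 ± 0.092, adjusted p = 0.000906, held under every pairing and, at 0.53 with adjusted p = 0.0153, without Kc arrays 2 and 5) and was at 0.35 ± 0.10 in DmD8 (adjusted p = 0.0686). The difference between the lines did not pass for bmm (-0.31, adjusted p = 0.193). The lipase gene Lip4 passed as higher in Kc (limma, 0.34 ± 0.098, adjusted p = 0.0471). Its Kc mean was 0.66 with activated RNA in Cy5 and 0.026 on the swaps, so the rise rested on the Cy5 arrays. In DmD8 Lip4 stood at -0.031 ± 0.14 on 4 arrays. The rise of Lip4 did not pass without Kc arrays 2 and 5 (0.31, adjusted p = 0.182), and the difference of daw did (-2.07, adjusted p = 0.000452).

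**Figure D5:**
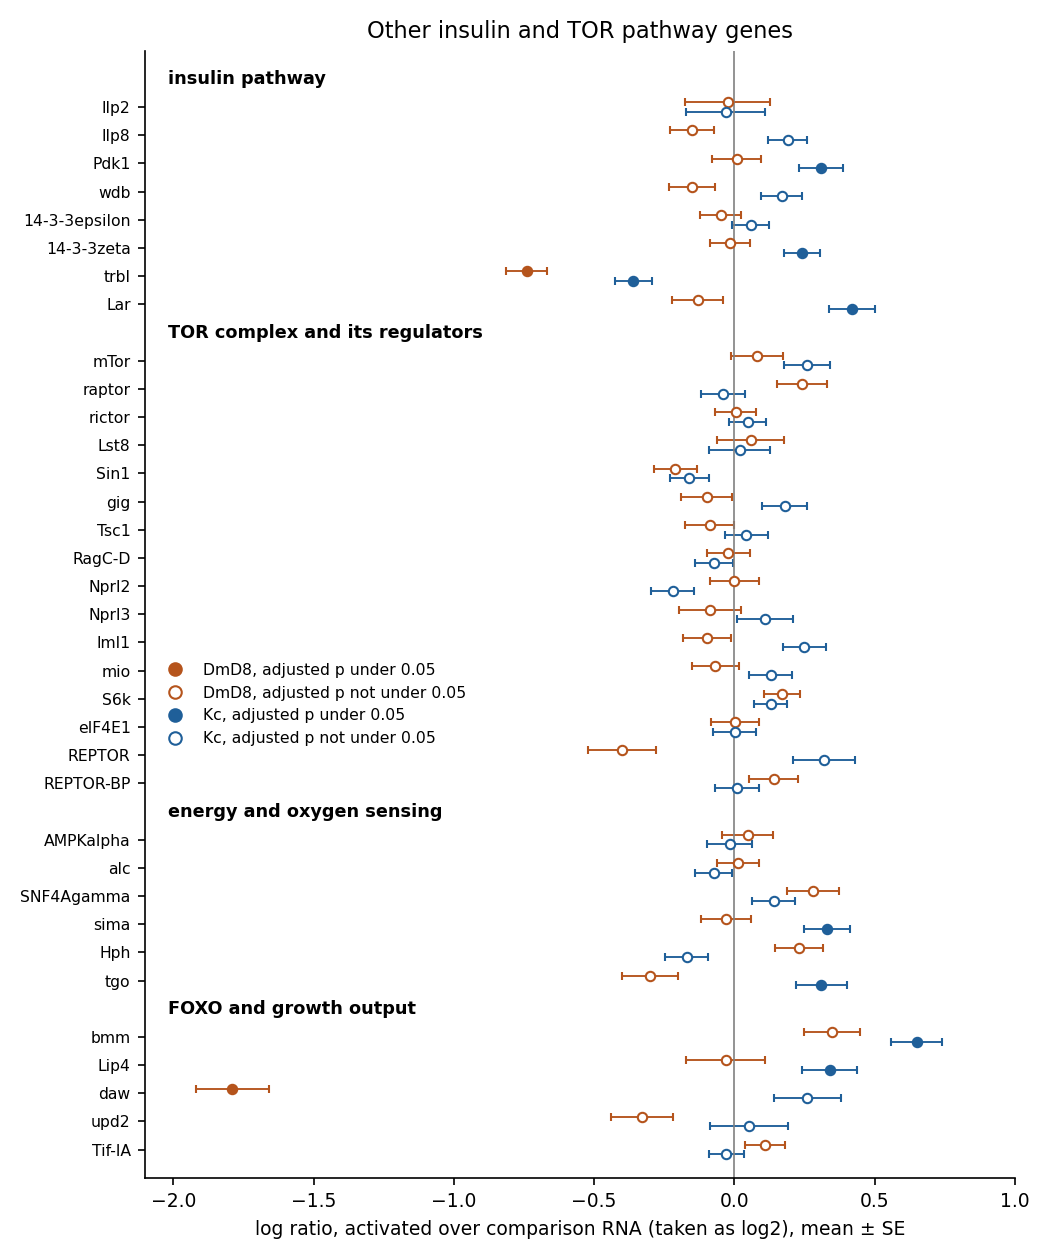
Fitted log ratio ± SE (taken as log2, horizontal axis) of the 35 other tested pathway genes in DmD8 (upper symbol) and Kc (lower symbol), grouped by list. Filled symbols have an adjusted p under 0.05. The trbl symbols are filled and below 0 in both lines, and daw is filled and below 0 in DmD8 at -1.79.

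The genes most like each called gene were sought among 6379 named genes with a value on every array, as those with the smallest root mean square difference over the 11 dye-corrected log ratios. For InR they were lola (0.17), emb (0.18) and NAT1 (0.18), and for chico CG31224 (0.11), CG33096 (0.12) and ATPCL (0.12). For ImpL2 they were Mekk1 (0.11), PolZ1 (0.15) and Hil (0.17), matched to the mean over its probes, which did not agree. Nearest to scyl were CG7634 (0.16), LeuRS (0.19) and peg (0.19), and nearest to Sesn were CG7220 (0.14), Vps13 (0.14) and Hem (0.15). The neighbours of scyl had means from -0.91 to -0.82 in DmD8 and from 0.16 to 0.27 in Kc, and those of Sesn from -0.28 to -0.18 in DmD8 and from 0.41 to 0.51 in Kc. Closeness of these means to those of scyl and Sesn follows from how the neighbours were chosen. Arrays of the same line may share RNA preparations and comparison cells, so likeness over them is a description.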

How the data were processed

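Per the labels, total RNA was extracted with Trizol, labelled directly with Cy3 and Cy5, hybridised to long-oligonucleotide arrays and quantified with Dapple. The deposited values, 1 log ratio per probe and array, were taken as log2; the log base, normalization, direction and turning of swaps were not given in the sources used here. Swaps were taken as already turned. Across 10060 features, arrays of opposite orientation correlated at -0.034 in DmD8 and 0.01 in Kc, and arrays of the same orientation at 0.54 and 0.61.

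Probes were named from the platform annotation (12658 with 1 symbol, 96 with several, 4504 unnamed; 12012 gene IDs matched the RefSeq table of Drosophila, which changed no symbol), and probes of a gene were averaged. Features needed 3 arrays with a value per line and both dye orientations. Tests used limma 3.58.1 in R 4.3.3, and figures matplotlib 3.10.9. The fit was checked on simulated data with independent arrays, so that check does not cover swaps that repeat the RNA of a replicate. The precision is limited by the number of arrays.

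The genes, lists and rules were chosen with earlier results of these data known. Named are the 10 listed genes, other pathway genes past the threshold in a line or the difference, and the 3 nearest genes of each called one; mTor and S6k were named after their values were seen. No coordinates or sequences are given.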

Additional observations from a re-analysis of the deposited data

Results flagged for a closer look

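The response differed between DmD8 and Kc by the test of the difference itself (limma, adjusted p under 0.05) for 4 of the 7 genes and 6 other pathway genes, given as DmD8 minus Kc. For chico the difference was -0.56, with -0.13 in DmD8 and 0.43 in Kc. For ImpL2 it was -0.82, with -0.51 and 0.32, for scyl -1.21, with -0.96 and 0.26, and for Sesn -0.85, with -0.34 and 0.51. Among the others, daw differed by -2.05, REPTOR by -0.72, tgo by -0.61, Lar by -0.55, trbl by -0.38 and Hph by 0.40. Of these 10 genes, scyl, Sesn and daw passed under every pairing of swaps with replicates. Without Kc arrays 2 and 5 the differences of chico, ImpL2, scyl, Sesn and daw passed and those of REPTOR, tgo, Lar, trbl and Hph did not (adjusted p from 0.0544 to 0.0734). The difference of InR, which is not among these 10, passed in that setting (-0.60, limma, adjusted p = 0.027). The part that the comparison RNA of DmD8 has in these differences cannot be told apart from that of the line.

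Within DmD8, 1 array of Hph stood apart: array 1 read 0.46 and the other 4 lay between 0.16 and 0.22, a gap of 0.78 of the range against a limit of 0.710 for 5 arrays. Chance flags about 1 group in 20.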

How the results depend on the processing

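The calls of the 7 genes moved with the handling of the swaps and with single arrays. The counts of calls are given in the order the 7 genes, the 35 other pathway genes and all features, and where a count is left out it stayed within 1.5 times of that in the report (2, 2 and 938 in DmD8; 3, 8 and 1542 in Kc; 4, 6 and 1415 for DmD8 minus Kc). With the signs of the swaps turned, a setting that makes the E(spl) targets negative on the swap arrays, DmD8 had 1, 4 and 2211 calls, Kc 1 and 2592 (first and last), and the difference 0, 0 and 0, where limma's unadjusted p was under 0.05 for 0, 1 and 752. Log ratios that changed sign there were in DmD8 InR -0.25, Akt -0.22, foxo -0.38, scyl 0.19 and Sesn 0.22, in Kc InR -0.19, chico -0.092, Akt -0.18, foxo -0.26 and ImpL2 -0.27, and in the difference foxo -0.13, ImpL2 0.077, scyl 0.028 and Sesn 0.18. With only the arrays that had activated RNA in Cy5, 1 of the 7 genes was called in DmD8 (ImpL2), 1 and 4 in Kc (Sesn, and 4 other pathway genes), and 0, 1 and 183 in the difference, where 5 of the 7 had an unadjusted p under 0.05. In the main fit 3221 of 12952 features had such a limma p in the difference, and the count for Cy5 arrays alone is not given. With Cy5 arrays alone the sign changed for InR (-0.073), Akt (-0.14) and foxo (-0.24) in DmD8, Akt (-0.096) and foxo (-0.20) in Kc, and foxo (-0.034) in the difference. Without a dye term the counts were 1 of the 7 genes and 456 features in DmD8, 3 other pathway genes and 655 features in Kc, and 3 other pathway genes and 505 features in the difference.

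Averaging swaps with replicates left, under every pairing, 0 of the 7 genes (3 at an unadjusted p under 0.05) and 202 features in DmD8, 2 other pathway genes and 597 features in Kc, and 2, 1 and 287 in the difference. The same with each line by itself over 6 pairings was chosen after seeing the data. It left 1 of the 7 genes (scyl) and 237 features in DmD8. In Kc it left 2 other pathway genes and 568 features, where InR and Sesn passed and chico reached an adjusted p of 0.0523 with limma. In both versions a DmD8 pairing rested on 2 averaged values, with 1 Cy5 array outside the mean, and a Kc pairing on 3. Each line fitted by itself gave 552 features in DmD8 and 5 other pathway genes in Kc. Without Kc arrays 2 and 5 there were 1 other pathway gene and 818 features in Kc, and 1 and 848 in the difference. Each probe was also tested by itself, with ImpL2 taken at probe 1, the lowest identifier among probes with equal numbers of values. Then 1 of the 7 genes was called in DmD8, and ImpL2 stood at 0.16 in DmD8 and 0.11 in the difference. In that same fit ImpL2 probes 2 and 3 passed in DmD8 (-0.92 and -0.76) and in the difference (-1.40 and -1.17). Leaving out 1 array gave 0 to 3, 2 to 4 and 437 to 925 calls in DmD8, 2 to 4, 3 to 9 and 905 to 1501 in Kc, and 3 to 5, 2 to 7 and 850 to 1263 in the difference. The count of 0 in DmD8 was without array 4, which ended the calls of both scyl and ImpL2, and where 3 of the 7 genes had an unadjusted p under 0.05. In the main fit 2555 of 12952 features had such a limma p in DmD8. Counts over all features at that level are not given for the averaged swaps or without array 4. The Akt difference, near 0, changed sign when arrays were centred (0.052), weighted (0.0075) or blocked (0.0074) and when 1 array was left out (-0.044 to 0.019 over all such fits, above 0 in 5), and foxo in Kc, from -0.0069 to 0.12 over them, changed sign without array 6.

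Whether same-numbered arrays of the lines shared more than a number was not known. Their deviations from the orientation mean correlated at -0.30, -0.33, 0.20, -0.13 and -0.094. By this measure 1 of 5 DmD8 arrays was closest to the Kc array of its number. Deviations of the DmD8 swaps mirror each other by construction, so these values cannot settle the question. With the replicate block, over the 10060 features with all values, 429 features were called in DmD8, 879 in Kc with 3 other pathway genes, and 676 in the difference, and the 7 genes kept their counts of 2, 3 and 4. Centring, the filters on missing values, array weights and the robust error model moved no count by over 1.5 times. The causes of the changes above were not tested.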
